A study of Arabidopsis thaliana with 4 samples.

Results

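Transcripts of the 4 poly(A) polymerases (PAPS1 to PAPS4) and the 3 nuclear poly(A)-binding proteins (PABN1 to PABN3) of Arabidopsis thaliana were followed in seedlings of the fip1-2 mutant. The 7 genes were taken by gene identifier from the 27654 genes in the table. The mutant line was fip1-2, named for FIP1, and the comparison line was a control that carries SKP2B::GUS, a reporter in which the SKP2B promoter drives the GUS enzyme. Both were of the Columbia ecotype and were grown in Murashige and Skoog medium for a time whose unit the labels omit, and each group had 2 libraries of polyadenylated RNA from whole seedlings. The type of the fip1-2 mutation is not stated in the labels, nor whether the mutant carries the reporter too, nor whether the 2 libraries of a group came from separate cultures, so the p-values measure only the spread between these libraries, which may be technical. Poly(A)-tag sequencing is named in the series' design text, whereas fragmented mRNA selected with oligo(dT) beads is described in the extract protocol.

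A messenger RNA is cut at its 3' end by a large complex and then receives a poly(A) tail. Poly(A) polymerase adds the adenosines, and nuclear poly(A)-binding proteins coat the growing tail, a step that in mammals makes the polymerase processive and sets the tail length. FIP1 is the subunit that links the polymerase to the cleavage complex. In Arabidopsis, PAPS1, PAPS2 and PAPS4 are nuclear enzymes, and PAPS1 is known for its part in organ growth and in restraining an immune response. PAPS3 is a shorter, cytosolic form known from pollen.

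The 3 expressed polymerase genes were higher in fip1-2 seedlings, PAPS4 at 1.39-fold, PAPS1 at 1.32-fold and PAPS2 at 1.22-fold of the control level. Of the nuclear poly(A)-binding protein genes, PABN3 was at 0.649 and PABN1 at 0.848 of the control level, and PABN2 did not pass the test. Among all genes tested, 27.0% were higher and 26.8% lower. PAPS2 and PABN1 did not pass after a correction for transcript length and GC content, and PABN1 did not pass in DESeq2 either. PAPS3 had almost no reads. These are bulk values of whole seedlings, in which fewer cells that express a gene and less of its RNA per cell cannot be told apart. A value is the normalised read count of the gene as deposited, and the folds above are ratios of group means. A log2 fold change is on the scale of log2(value + 2) in limma. Its p-value is adjusted by Benjamini-Hochberg over the 19931 genes with a mean of at least 10.

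The libraries held 20908391 and 20874114 reads in fip1-2, against 21056064 and 21104606 in control. FIP1, the gene the mutant is named for, was higher in the libraries labelled fip1-2, at 5217 and 5145 normalised reads, against 1796 and 1912 in the libraries labelled control (log2 fold change 1.48 ± 0.05 SE, limma adjusted p = 2.98e-11). Reads were totalled over the whole gene and the type of mutation is not stated, so this level is no check of the labels, and fip1-2 below means the libraries so labelled. The whole-seedling label was checked with markers. Shoot markers (4 genes) summed to 514379 and 547586 normalised reads in the fip1-2 libraries, against 387637 and 382027 in the control libraries. Of the 4, LHB1B1 and LHCA1, light-harvesting genes, were higher (log2 fold changes 0.95 and 0.70), while RBCS1A and RBCS3B, of the Rubisco small subunit, did not pass (both 0.14). Root markers (4) summed to 3483 and 3362 in fip1-2, against 1987 and 2046 in control, and none of the 8 was at 0. Seed markers (4) summed to 4645.5 and 1739.5 (fip1-2), against 247 and 57.3 (control). These marker sums moved with genotype, as the members did, and their part in the members' differences was not tested.

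The coding sequences show how alike the members are, which bears on whether reads could be counted for the wrong copy. PAPS2 and PAPS4 were the closest pair of polymerases, with 82.7% identical bases over 2247 aligned coding bases in the RefSeq annotation of TAIR10.1, while PAPS1 shared 62.7% with PAPS4 and 63.4% with PAPS2. The longest run that PAPS2 and PAPS4 share exactly is 47 bases long (coding bases 970 to 1016 of PAPS2 and 964 to 1010 of PAPS4), and it is shown with the matching stretch of PAPS1 (coding bases 934 to 980), where capitals mark the 9 bases that differ from PAPS4.
PAPS4: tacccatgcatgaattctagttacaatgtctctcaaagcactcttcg
PAPS2: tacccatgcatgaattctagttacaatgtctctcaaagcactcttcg
PAPS1: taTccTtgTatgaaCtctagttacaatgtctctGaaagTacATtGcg

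Among the nuclear poly(A)-binding proteins, PABN2 and PABN3 were the closest pair, with 82.2% identical coding bases, against 72.5% for PABN1 with either. Their longest exact run was 20 bases. It lies in coding bases 1 to 45, shown here from the start codon, with the 5 bases of PABN2 that differ from PABN3 in capitals.
PABN3: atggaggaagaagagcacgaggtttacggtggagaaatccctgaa
PABN2: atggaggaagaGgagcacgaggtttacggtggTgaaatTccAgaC

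No stretch of 30 bases of the longest PABN1, PABN2 or PABN3 transcript occurred in the longest transcript of another gene. For PAPS4 33 of 3963 stretches of 30 bases (0.833%) did, the other gene being PAPS2, and at 50 bases there were 0 of 3943. In PAPS1 2.74% of stretches of 50 bases were shared with AT1G18030, a protein phosphatase 2C gene, and in PAPS2 58 of 3877 with OVA4 (AT2G25840), which overlaps it. Reads from those stretches could be counted for either gene or for neither, and read length is not stated.

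PAPS4 (AT4G32850, chromosome 4), listed as nPAP in RefSeq, encodes the nuclear polymerase with the most reads in these seedlings. It had 2476 and 2411 normalised reads in the fip1-2 libraries, against 1721 and 1808 in the control libraries. Both fip1-2 libraries lay above both control libraries. The mean was 2443 ± 45.9 in fip1-2 and 1765 ± 62.0 in control (SD, n = 2 each), with a log2 fold change of 0.47 ± 0.05 SE (limma adjusted p = 3.87e-06). Of the genes tested, 15.3% had a higher log2 fold change.

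PAPS1 (AT1G17980, chromosome 1) is the polymerase whose mutants are best known for altered leaves and flowers. It had 1319 and 1279 normalised reads in the fip1-2 libraries, against 909.9 and 1063 in the control libraries. The groups did not overlap, although the control libraries differed from each other by more than the fip1-2 libraries did. The mean was 1299 ± 28.8 in fip1-2 and 986 ± 108 in control (SD, n = 2 each), and the log2 fold change was 0.40 ± 0.07 SE (limma adjusted p = 0.000261). PAPS1 overlaps AT1G17970, a RING/U-box gene on the other strand, by 35 bases, and reads are not known to have been assigned by strand, so reads of that stretch cannot be told apart. AT1G17970 had 402 and 386 normalised reads in the fip1-2 libraries, against 316 and 317 in the control libraries. It was higher in the mutant, as PAPS1 was (log2 fold change 0.31, limma adjusted p = 0.00573). AT1G18030, with which PAPS1 shares the stretches noted above, had 329 and 306 normalised reads in the fip1-2 libraries, against 179 and 191 in the control libraries.

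PAPS2 (AT2G25850, chromosome 2), the near copy of PAPS4, rose least of the 3. It had 899 and 860.4 normalised reads in the fip1-2 libraries, against 708 and 735 in the control libraries. The groups did not overlap. The mean was 879.9 ± 27.6 in fip1-2 and 721 ± 18.9 in control (SD, n = 2 each), with a log2 fold change of 0.29 ± 0.06 SE (limma adjusted p = 0.00169). When the log2 fold changes of all genes were corrected for their dependence on length and GC content, PAPS2 stood at 0.05 ± 0.07 SE and did not pass (limma adjusted p = 0.548). PAPS2 overlaps OVA4, on the other strand, by 107 bases. OVA4 had a log2 fold change of 0.09 and did not pass (limma adjusted p = 0.326).

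PAPS3 (AT3G06560, chromosome 3) has a coding sequence of 1524 bases, against 2142 to 2403 in the other 3 polymerases. It had 1 read in fip1-2 replicate 1, 0 in fip1-2 replicate 2, 1 in control replicate 1 and 0 in control replicate 2. All 4 values lay under the limit of 3 reads that a count of 0 allows, which is 2.88 to 3.11 normalised reads, so no fold is given and expression was not detectable at this depth. Markers of pollen and stamen, the tissue PAPS3 is known from, were near 0 too. The 5 markers summed to 28.7 and 18.7 normalised reads in the fip1-2 libraries, against 24.0 and 8.74 in the control libraries, and PPME1, a pectin methylesterase gene of pollen, was at 0 in all 4.

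**Figure D1:**
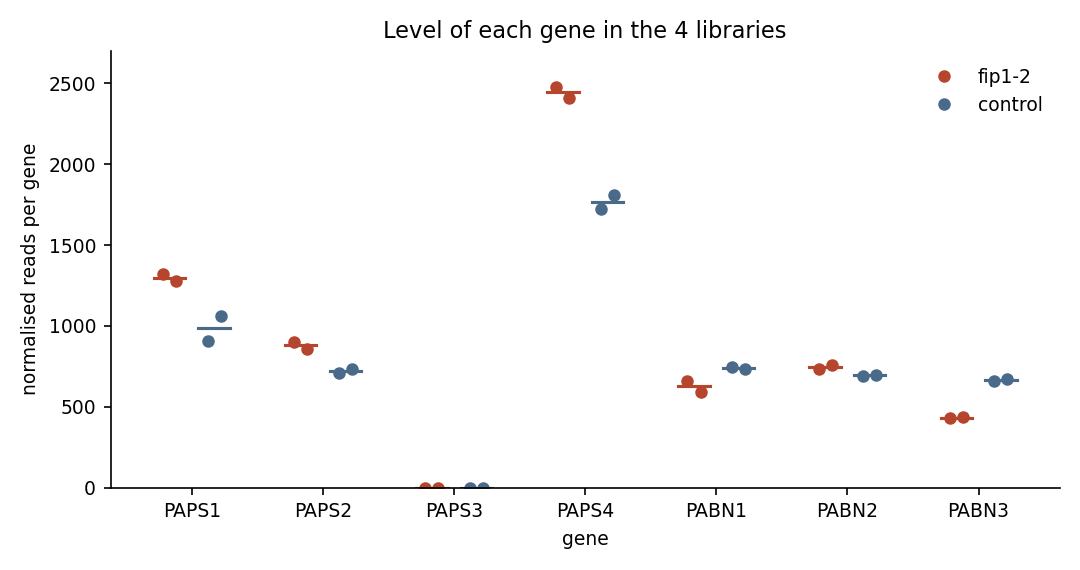
Normalised reads of each of the 7 genes (vertical axis, linear) in the 2 fip1-2 libraries (red, left) and the 2 control libraries (blue, right), with points for libraries and bars for group means. PAPS4 stands highest at 2476 and 2411 in fip1-2 against 1721 and 1808 in control, PABN3 is lower in fip1-2, and PAPS3 lies at the axis.

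PABN3 (AT5G10350, chromosome 5), a gene that RefSeq lists only as an RNA-binding protein with an RRM motif, fell. It had 429 and 435 normalised reads in the fip1-2 libraries, against 657 and 675 in the control libraries. Replicates lay close together in both groups, and the groups were far apart. The mean was 432 ± 3.997 in fip1-2 and 666 ± 12.3 in control (SD, n = 2 each), with a log2 fold change of -0.62 ± 0.07 SE (limma adjusted p = 4.38e-06). Of the genes tested, 9.44% had a lower log2 fold change.

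PABN1 (AT5G51120, chromosome 5), the family member that has been found to bind FIP1 in Arabidopsis, fell by less. It had 658 and 595 normalised reads in the fip1-2 libraries, against 744 and 733 in the control libraries. The groups did not overlap, and the fip1-2 libraries differed from each other more than the control libraries did. The mean was 626 ± 44.5 in fip1-2 and 738 ± 7.62 in control (SD, n = 2 each), with a log2 fold change of -0.24 ± 0.07 SE (limma adjusted p = 0.0106). The call was lost without fip1-2 replicate 2, where the log2 fold change was -0.17 (limma adjusted p = 0.121), in DESeq2 (-0.23, adjusted p = 0.0979), which called 36.3% of genes, and after the correction for length and GC content (-0.12, limma adjusted p = 0.165). PABN1 overlaps AT5G51110, a pterin dehydratase gene on the other strand, by 162 bases. That gene had 2188 and 2196 normalised reads in the fip1-2 libraries, against 1911 and 1957 in the control libraries, and was higher in the mutant where PABN1 was lower.

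PABN2 (AT5G65260, chromosome 5), the near copy of PABN3, did not pass the test. It had 735.5 and 759 normalised reads in the fip1-2 libraries, against 693 and 697 in the control libraries. Its log2 fold change was 0.10 ± 0.06 SE (limma adjusted p = 0.189), with a 95% interval of -0.03 to 0.24. The interval of PABN3 ran from -0.77 to -0.47, so the 2 intervals of this pair of near copies did not meet. Both fip1-2 libraries of PABN2 lay above both control libraries, but with 2 libraries a group that was also so, in one direction or the other, for 77.2% of all genes tested. Among all genes tested, the fip1-2 libraries lay wholly above the control libraries in 38.2% and wholly below in 39.0%. All 6 members tested had groups apart, 4 above and 2 below.

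Of the 6 members tested, 3 rose, 2 fell and 1 did not pass, where 53.8% of all genes tested passed in limma. By direction, 27.0% of all genes tested were higher and 26.8% lower, so a call on a member is common in this comparison, and its size and direction carry the description. The median size among all called genes was 1.39-fold, close to that of PAPS4. PAPS3 is not among the 6, since its mean was under 10.

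**Figure D2:**
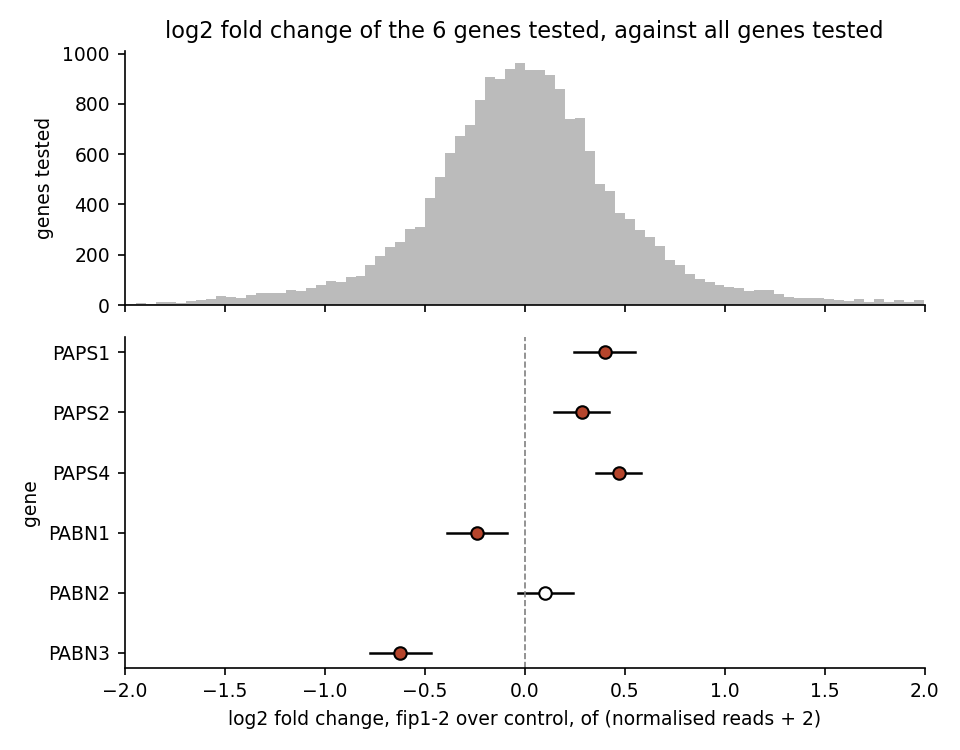
Above, the number of genes tested by log2 fold change of fip1-2 over control (genes beyond -2 or 2 not drawn); below, the log2 fold change of the 6 members tested on the same axis, with lines for 95% intervals from limma and filled points for adjusted p under 0.05. The 3 polymerases lie right of 0, between 0.29 and 0.47, PABN1 and PABN3 lie left of it, and the interval of PABN2 crosses 0.

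Levels of different genes were compared as normalised reads per kilobase of the longest annotated transcript. In fip1-2 seedlings the order was PABN2 (729.6), PAPS4 (612), PABN1 (516), PAPS1 (479.5), PABN3 (235), PAPS2 (224) and PAPS3 (0.286). In control seedlings it was PABN2 (678.5), PABN1 (609), PAPS4 (442), PAPS1 (364), PABN3 (362), PAPS2 (184) and PAPS3 (0.268). In control, PAPS1 at 336 and 392 and PABN3 at 357 and 366 overlapped and cannot be ordered. PAPS4 stood above PABN1 in both fip1-2 libraries (620.2 and 604 against 542 and 490.3) and below it in both control libraries (431 and 453 against 613 and 604). The order depends on the annotated lengths, since the longest PABN3 transcript has 1841 bases for 654 coding bases. It also assumes that reads scale with transcript length, which depends on the assay. The sources name both poly(A)-tag sequencing and fragmented mRNA. Without the division, PAPS4 (2443 in fip1-2 and 1765 in control) stood above PABN2 (747 and 695).

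Summed per kilobase, the polymerases had 1337 and 1295 normalised reads in the fip1-2 libraries, against 948 and 1033 in the control libraries. The nuclear poly(A)-binding proteins had 1494 and 1467 in the fip1-2 libraries, against 1647 and 1651 in the control libraries. The ratio of the binding proteins to the polymerases was thus 1.12 and 1.13 in the fip1-2 libraries, against 1.74 and 1.599 in the control libraries. Both sums and the ratio rest on the division by transcript length. The groups of all 3 measures were apart, but with 2 libraries a group the exact permutation test (two-sided) gave p = 0.333, the smallest it allows (adjusted p = 0.389 over 7 ratios and 0.429 over 9 shares and sums).

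**Figure D3:**
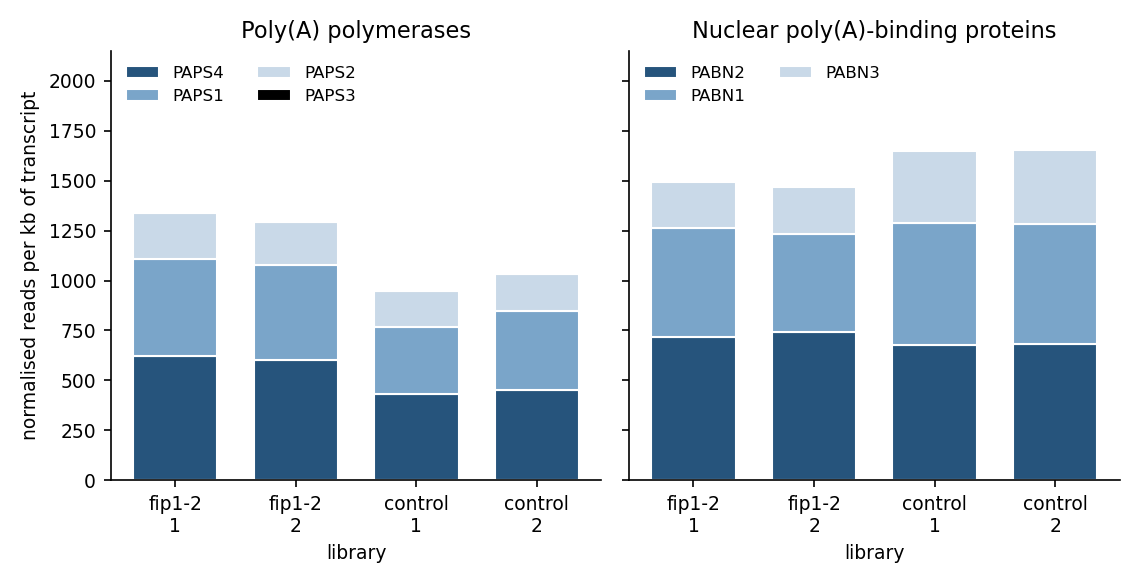
Normalised reads per kilobase of longest annotated transcript (vertical axis, from 0) in the 2 fip1-2 and the 2 control libraries, stacked by gene, for the polymerases (left) and the nuclear poly(A)-binding proteins (right). The polymerase stack is taller in fip1-2, at 1337 and 1295, and the binding protein stack is shorter, at 1494 and 1467, with PABN3 the segment that shrinks most; PAPS3 is too low to see.

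Within the polymerase family, the mean share of a member differed by at most 1.84 percentage points between fip1-2 and control. PAPS4 made up 46.4% and 46.6% of the family's level per kilobase in the fip1-2 libraries, against 45.5% and 43.9% in the control libraries. PAPS1 made up 36.4% and 36.5% in fip1-2, against 35.4% and 38.0% in control, and these overlapped. PAPS2 had 17.1% and 16.9% in fip1-2, against 19.0% and 18.1% in control. Among the binding proteins, the mean share of PABN2 differed by 8.14 percentage points and that of PABN3 by -6.08. PABN2 made up 48.1% and 50.5% in the fip1-2 libraries, against 41.1% and 41.2% in the control libraries. PABN3 made up 15.6% and 16.1% in fip1-2, against 21.7% and 22.2% in control. PABN1 made up 36.3% and 33.4% in fip1-2, against 37.2% and 36.6% in control. Without length scaling the mean share differed by 8.29 percentage points for PABN2 and -7.79 for PABN3. For PABN1 the difference was -2.06 with the scaling, -0.501 without it and -0.43 with coding length. The log2 ratio of PABN2 to PABN3 was 1.62 and 1.65 in the fip1-2 libraries, against 0.92 and 0.89 in the control libraries, a difference of 0.73. That of PAPS2 to PAPS4 was -1.44 and -1.46 in fip1-2, against -1.26 and -1.27 in control, a difference of -0.18. The exact permutation test (two-sided) gave p = 0.333 for both ratios, again the smallest it allows.

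Transcript length moved with the direction of change. Longer genes had higher log2 fold changes across all genes tested (Spearman correlation 0.299 with the longest transcript), although genes are not independent replicates. The polymerases have long transcripts, with 3992 bases for PAPS4, 3926 for PAPS2 and 2709 for PAPS1, while PABN1 (1213 bases) and PABN2 (1024 bases) are among the shorter and PABN3 (1841 bases) lies near the middle. When genes were split by length into 10 classes of like size, the class with the longest transcripts had a median log2 fold change of 0.26, beside 0.47 for PAPS4 and 0.29 for PAPS2, and 28.7% of those genes stood above PAPS4 and 47.1% above PAPS2. In the class of PAPS1, at 0.40, the median was 0.11, and 21.1% of genes stood above it. In the class of PABN2, at 0.10, the median was -0.18, and 26.3% stood above it. In the class of PABN1 the median was -0.12, and 61.6% of genes stood above it. PABN3 was low within its class, whose median was -0.01, with 92.8% of those genes above it. After correction for length and GC content, which left 49.4% of 19819 genes past the threshold, PAPS1 was at 0.30, PAPS4 at 0.21 and PABN3 at -0.56 and still passed (limma adjusted p = 0.00337, 0.00408 and 1.55e-05), PAPS2 and PABN1 did not pass, and PABN2 passed at 0.24 (limma adjusted p = 0.00554). Whether length or GC content has a part in the members' differences was not tested beyond this correction.

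**Figure D4:**
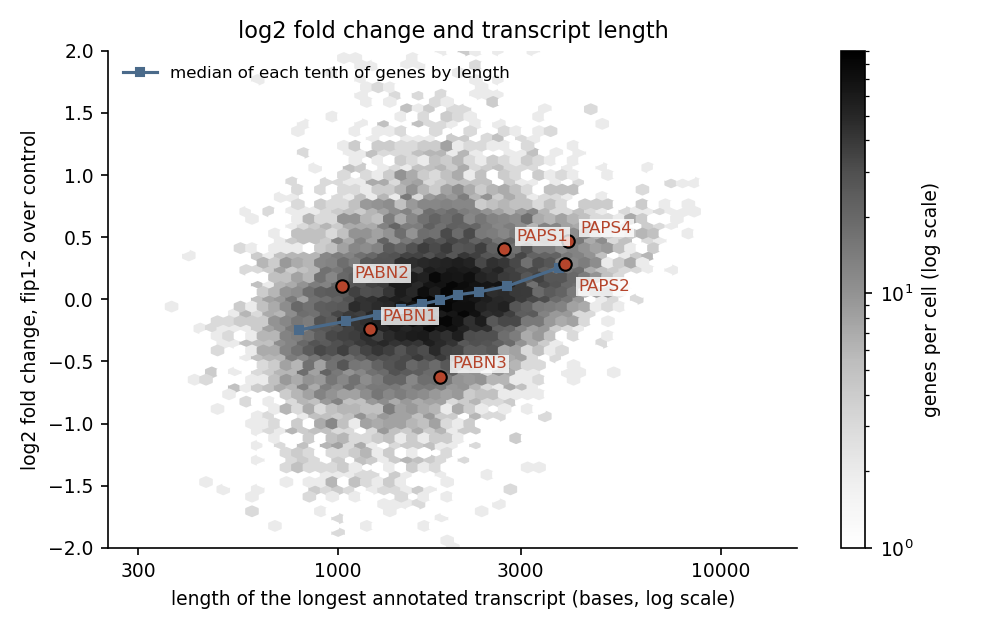
log2 fold change of fip1-2 over control (vertical axis) against the length of the longest annotated transcript in bases (log axis); grey cells count genes, blue squares are medians of 10 length classes of like size, and red points are the 6 members tested. The medians climb with length to 0.26 in the longest class, the polymerases sit at the long end, and PABN3 lies furthest below the line among the members.

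The stretch before the annotated start of a gene holds its core promoter. The stretches of PAPS4 and PAPS1, which rose, and of PABN3, which fell, are shown. Among the members tested, only these stretches do not overlap a neighbouring gene. Each is 250 bases, read from TAIR10.1 in RefSeq, 5' to 3' on the strand of the gene. The telo-box (AAACCCTA), both forms of the element that begins TGGGC (ending in C or in T), the G-box (CACGTG) and a TATA core (TATAAA) were searched on both strands, and capitals mark every match. The lines are for chr4:15849461-15849710 (plus strand, PAPS4), chr1:6191709-6191958 (minus strand, PAPS1) and chr5:3257812-3258061 (minus strand, PABN3).
PAPS4: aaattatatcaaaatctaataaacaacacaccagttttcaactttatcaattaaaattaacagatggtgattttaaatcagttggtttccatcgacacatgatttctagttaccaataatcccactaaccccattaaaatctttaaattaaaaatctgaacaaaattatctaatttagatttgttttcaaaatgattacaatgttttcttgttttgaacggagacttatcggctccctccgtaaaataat
PAPS1: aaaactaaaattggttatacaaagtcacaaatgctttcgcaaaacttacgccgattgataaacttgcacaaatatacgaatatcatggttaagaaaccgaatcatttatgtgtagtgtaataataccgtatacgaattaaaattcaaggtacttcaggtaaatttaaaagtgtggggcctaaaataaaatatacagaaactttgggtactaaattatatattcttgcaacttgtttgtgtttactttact
PABN3: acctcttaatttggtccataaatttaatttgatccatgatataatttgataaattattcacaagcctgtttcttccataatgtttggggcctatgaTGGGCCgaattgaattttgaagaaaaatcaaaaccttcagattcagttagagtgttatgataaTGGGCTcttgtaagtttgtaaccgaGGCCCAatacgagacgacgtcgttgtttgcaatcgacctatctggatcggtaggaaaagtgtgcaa

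The PAPS4 and PAPS1 stretches held none of the 5 motifs in this window. The PABN3 stretch held TGGGCC 2 times, starting 154 and 66 bases before the annotated start, and TGGGCT once, 91 bases before it. PABN2, which did not pass the test, held TGGGCC 2 times as well, 63 and 51 bases before its start. PABN1, which fell, and PAPS2, which rose, held none of the 5 motifs. PAPS3, which was not tested, held only a TATA core, 145 bases before its start. Over 27443 promoters of the same length, 13.7% held TGGGCC and 12.3% held TGGGCT. The telo-box was in 4.49%, the G-box in 6.49% and the TATA core in 47.3%.

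The factors that cut the messenger and recruit the polymerase rose in many cases. Of 23 tested among 25 listed, 14 rose and 9 did not pass in limma, where 53.8% of all genes tested passed and 27.0% were higher. Their median log2 fold change was 0.25, against -0.00428 over all genes tested. FIP1 itself, listed as FIP1[V] (AT5G58040), is one of the 14, with the values given above. It had the highest log2 fold change of the list (1.48), and the type of the fip1-2 mutation is not stated. The symplekin scaffold gene AT1G27595 had 1367 and 1419.8 normalised reads in fip1-2, against 800.3 and 831 in control (log2 fold change 0.77). AT1G66500, of the Pcf11 group that couples cleavage to transcription, had 151 and 124.5 in fip1-2, against 58.6 and 59.2 in control (1.19). The second symplekin gene, ESP4, had 839 and 836.5 normalised reads in fip1-2, against 614 and 619 in control (0.44). After correction for length and GC content, 10 of the 23 were higher and 2 lower. Under that correction 49.4% of 19819 genes passed, 4946 higher and 4850 lower. AT1G27595 then stood at 0.45, and ESP4, at 0.06, did not pass (limma adjusted p = 0.495).

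Cytoplasmic poly(A)-binding proteins, which take over the tail after export and aid translation, had 4 of 8 genes over the filter, of which 3 rose and 1 fell, where 53.8% of all genes tested passed. PAB2, the most abundant, had 16669 and 17083 normalised reads in fip1-2, against 13782 and 13671 in control (log2 fold change 0.30, limma adjusted p = 0.000164). PAB8 was lower, at 1709 and 1796 in fip1-2, against 2309 and 2308 in control (-0.40, limma adjusted p = 1.84e-05). After correction for length and GC content, PAB2 stood at 0.10 and did not pass (limma adjusted p = 0.0964), and under quantile normalization it stood at 0.10 (limma adjusted p = 0.0491). PAB4 was at 0.13 (limma adjusted p = 0.0304) and lost its call in DESeq2 (adjusted p = 0.108), under quantile normalization, after the correction and without any single library. The weakly expressed PAB7 was at 1.27 (limma adjusted p = 0.00583) and did not pass in DESeq2 (adjusted p = 0.0825). The 4 had a median of 0.22.

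Other enzymes that add nucleotides to RNA ends were also listed. Of 8 tested among 9 listed, 2 rose, 1 fell and 5 did not pass, where 27.0% of all genes tested were higher and 26.8% lower, and the median was 0.12. HESO1, which adds uridines to small RNAs that lack a methyl group, had 297 and 286 normalised reads in fip1-2, against 399.7 and 407 in control (log2 fold change -0.46, limma adjusted p = 0.00033). MEE44 rose by 0.29 and AT3G61690 by 0.3004 on the log2 scale, but after correction for length and GC content they stood at -0.15 and -0.11. AT3G45750 was at 0.29 and did not pass (limma adjusted p = 0.0827).

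The listed genes of the CCR4-NOT complex, which shortens the tail, and of PARN were called about as often as genes in general. The list leaves out the CAF1 deadenylases. Of 10 genes of the CCR4-NOT complex and PARN, 4 rose, 2 fell and 4 did not pass, beside 53.8% of all genes tested that passed, with a median of 0.08. The nuclease genes of the list, the DNAse I-like AT3G58560 and AT3G58580 and the PARN gene AHG2, did not pass (limma adjusted p = 0.145, 0.482 and 0.22). The scaffold gene AT1G02080 (NOT1) had 4629 and 4721 normalised reads in fip1-2, against 2375 and 2556 in control (log2 fold change 0.92, limma adjusted p = 3.67e-09). AT5G18230, of the NOT3 type, rose by 0.31 on the log2 scale. After correction for length and GC content AT1G02080 stood at 0.31, still past the threshold, and AT5G18230 stood at 0.11 and did not pass (limma adjusted p = 0.084). Of the Rcd1-like genes, AT2G32550 had 43.0 and 43.6 in fip1-2, against 3.84 and 4.85 in control (2.84), and AT3G20800 had 387 and 429.7 in fip1-2, against 538 and 512.5 in control (-0.36). The remaining Rcd1-like gene, AT5G12980, was higher (0.40, limma adjusted p = 0.00372).

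Other genes had profiles close to those of PAPS4 and PABN3. Likeness was the Euclidean distance between centred log2 values over the 4 libraries, in log2 units, to 15179 other genes with a mean of at least 100. Nearest to PAPS4 were the chloroplast gene ATCG00820 (0.0105), AT1G42470 of the Patched family (0.0176) and SEX1, a starch phosphorylation gene (0.0191). Nearest to PABN3 were RALFL34, a peptide gene (0.0158), the uncharacterized AT1G13360 (0.0204) and AT2G41600 of the mitochondrial glycoprotein family (0.0253). With 4 libraries such closeness mostly means a fold change of like size, at 0.48, 0.49 and 0.47 for the first 3 and -0.63, -0.63 and -0.62 for the others.

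**Figure D5:**
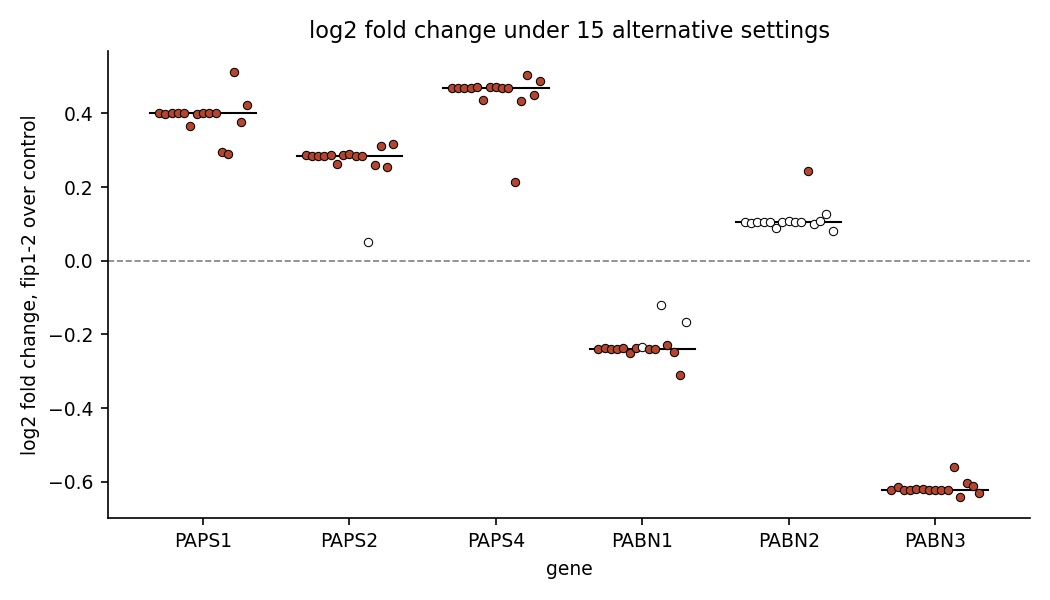
log2 fold change of fip1-2 over control (vertical axis) of the 6 members tested under 15 alternative settings each (points; filled where the adjusted p is under 0.05), with a line at the value reported. The points of PAPS1, PAPS4 and PABN3 are all filled, while PAPS2, PABN1 and PABN2 each have points on the other side of the threshold. Settings that leave out a library keep only 1 in its group.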

How the data were processed

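The deposited table holds 1 signal value per gene and library. The values show that the authors scaled each library's read counts by a single factor. The submitters' processing notes list HISAT2, HTSeq, edgeR, FastQC and CASAVA 1.4, without roles. Build, annotation and strand setting were not given in the sources used. Every value (100%, within 1e-06) was a whole multiple of its column's smallest value above 0, which gave 20874114 to 21104606 reads per library. With 2 libraries per group, this depth and the replicate spread limit precision, and the median SE of a log2 fold change was 0.0941.

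Values were used as deposited. Genes with a mean of at least 10 (19931 of 27654) were fitted on log2(value + 2) with limma 3.58.1 (variance trend, genotype as the only term, two-sided) in R 4.3.3, with adjustment by Benjamini-Hochberg (threshold 0.05). edgeR 4.0.16 on the recovered whole reads called 10731 genes, against 10726 in limma. DESeq2 1.42.0 and other alternatives are described in the closing section. Replicates differed by more than sampling noise (mean chi-square per gene 2.79 in fip1-2 and 3.03 in control) and were counted as separate libraries. Shares and ratios were tested with an exact permutation test over libraries.

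Members and lists were chosen with earlier results of these data known. The genes named are the 7 members, FIP1, up to 4 per list with the smallest p, and the 3 genes nearest in profile to each of the 2 members with the smallest p. Overlapping neighbours, markers, and the nuclease and remaining Rcd1-like genes of the CCR4-NOT and PARN list are named besides. Sequences, lengths and names come from RefSeq TAIR10.1, in which 27444 identifiers had a transcript, and coding sequences were aligned with Biopython 1.88.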

Additional observations from a re-analysis of the deposited data

How the results depend on the processing

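PAPS1, PAPS4 and PABN3 passed under every alternative that kept all 4 libraries. Across all 15 alternatives their log2 fold changes ran from 0.29 to 0.51, 0.21 to 0.51 and -0.64 to -0.56. A fit without 1 library leaves 1 in its group, so its p-value rests on the other group and on variance shared across genes. The other alternatives refit the same 4 libraries. PAPS2 lost its call only with the length and GC trend removed (0.0503), PABN1 under that removal (-0.12), in DESeq2 (-0.23) and without fip1-2 replicate 2, and PABN2 gained a call with the trend removed (0.24). The cause was not tested. Without 1 library each, log2 fold changes ran from 0.29 to 0.51 for PAPS1, 0.25 to 0.32 for PAPS2, 0.43 to 0.51 for PAPS4, -0.31 to -0.17 for PABN1, 0.08 to 0.13 for PABN2 and -0.64 to -0.603 for PABN3. The PAPS1 share of its family, -0.28 percentage points in fip1-2 minus control, ran from -1.56 to 1.002, reversing without control replicate 2. That of PABN1, -2.06 percentage points, was -0.501 without length scaling.

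DESeq2 called 3443 lower and 3789 higher genes, 36.3% of those tested, against 5342 and 5384 in limma. It called 9 of 23 cleavage and polyadenylation factors, against 14, and 2 of 4 cytoplasmic poly(A)-binding proteins, against 4. With the trend removed, 2 of 4 cytoplasmic poly(A)-binding proteins and 1 of 8 nucleotidyltransferases were called, where 49.4% of all genes passed. List medians moved. With the trend removed they were 0.165 for cleavage factors, 0.0626 for cytoplasmic poly(A)-binding proteins, -0.0943 for nucleotidyltransferases and -0.00864 for CCR4-NOT and PARN, and MEE44 and AT3G61690 reversed (-0.15 and -0.11). Quantile normalization gave 0.0848 for cytoplasmic poly(A)-binding proteins, 0.0948 for nucleotidyltransferases and 0.0604 for CCR4-NOT and PARN, which was 0.0636 with a filter of 50. Cytoplasmic poly(A)-binding proteins stood at 0.0735 without a filter and 0.134 with a filter of 50, and nucleotidyltransferases at 0.151 without one. Without 1 library each, medians ran from 0.25 to 0.31 for cleavage factors and 0.0682 to 0.178 for nucleotidyltransferases.

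The replicate numbers are not said to pair libraries, and across all genes tested same-numbered libraries did not deviate together (correlation -0.0117). Seed marker sums, however, were higher in replicate 1 than in replicate 2 of both groups (4645.5 and 1739.5 in fip1-2, 247 and 57.3 in control). Shoot and root marker sums did not share such a direction. Whether same-numbered libraries share a batch or stage was not tested. With the replicate block, 11004 genes passed, against 10726, and no member's call changed.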
